A study of Mus musculus with 10 samples.

Results

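The small RNA of CD43- splenic B-cells held 5 mature microRNAs known best from red blood cells: mmu-miR-451a, mmu-miR-144-5p, mmu-miR-144-3p, mmu-miR-486a-5p and mmu-miR-486b-5p (here without the mouse prefix). They were taken by name from the microRNA class of the count table, and 5 of 5 were found among 2015 microRNA features, of which 1302 were mature microRNAs and 713 were hairpins. Read counts were obtained in 10 libraries. There were 2 libraries each of wild-type (wt) cells and of cells without the 3'RR (the enhancer cluster at the 3' end of the immunoglobulin heavy chain locus), both non-stimulated and with lipopolysaccharide (LPS), and 1 library in each condition of cells without Eµ (the intronic enhancer of the same locus). LPS is a bacterial cell wall component that activates B-cells through TLR4. Per the labels, every culture lasted 2 days, in medium alone or with 5 µg/ml of LPS (the protocol text writes mg/ml), and the cells of 2 mice were pooled for each library. The study's methods give mice of 8 to 12 weeks and of both sexes, and an EµMAR deletion in the Eµ-deficient line, which its text describes as poor in follicular B-cells. They describe total RNA taken before and after LPS, so for the small RNA the effect of culture and that of LPS may be mixed. The p-values measure the spread between libraries, and the Eµ-deficient mice have no replicate within a condition. Whether a non-stimulated and an LPS library share mice is not known here. Fits over both conditions treat all libraries as independent. In bulk RNA, fewer cells of a type and less RNA per cell cannot be told apart.

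MicroRNAs are short RNAs, loaded on Argonaute proteins, that pair with messenger RNAs through the seed, the bases near their 5' end, and lower the output of the target. The miR-144 and miR-451a genes stand next to each other and are transcribed together in red cell precursors under the control of GATA1, the main transcription factor of that lineage. miR-451a is matured by slicing with Argonaute 2 and not by Dicer, and protects red cells against oxidative stress by restraining the expression of 14-3-3ζ. miR-486 lies within the gene of ankyrin 1, a protein of the red cell membrane skeleton, and is abundant in red cells and in muscle. Mature red cells have no nucleus but keep a store of microRNAs, in which miR-451a and miR-486 are among the most abundant.

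The sequences of the chromosome 11 members are shown because they set which microRNAs could be confused with them and where each lies in its hairpin. They are the mature sequences of RefSeq (GRCm38.p6), 5' to 3', with the seed (bases 2 to 8) in capitals.
miR-451a: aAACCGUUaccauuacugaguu
miR-144-5p: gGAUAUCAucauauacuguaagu
miR-144-3p: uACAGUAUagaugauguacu
The 3 seeds differ from each other, and no other mature microRNA of the RefSeq table holds any of them. miR-101a-3p, printed here with its own bases 2 to 8 in capitals, shares bases 2 to 7 with miR-144-3p and differs from it at base 8.
miR-101a-3p: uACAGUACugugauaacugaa
miR-144-5p and miR-144-3p are the opposite arms of one hairpin, whereas miR-451a crosses from the 5' arm of its hairpin into the loop. In the hairpins below, capitals mark the mature members.
Mir144: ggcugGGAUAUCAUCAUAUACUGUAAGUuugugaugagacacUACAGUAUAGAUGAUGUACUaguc
Mir451a: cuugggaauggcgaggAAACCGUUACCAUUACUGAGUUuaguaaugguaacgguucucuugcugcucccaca

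The Mir144 hairpin occupies chr11:78073005-78073070 and the Mir451a hairpin chr11:78073170-78073241 of mm10, both on the plus strand, with 99 bases between them. Within them miR-144-5p lies at chr11:78073010-78073032, miR-144-3p at chr11:78073047-78073066 and miR-451a at chr11:78073186-78073207. All 3 are in exons of their own microRNA genes, and the Mir451b gene lies on the minus strand of the Mir451a hairpin. miR-486a-5p (chr8:23142587-23142608, plus strand) and miR-486b-5p (chr8:23142627-23142648, minus strand) come from the overlapping genes Mir486 and Mir3107, in an intron of Ank1 and in an intron of the antisense gene Gm15816. The counts of miR-486a-5p and miR-486b-5p differed by 0 to 29 reads in a library, where a random split of the same reads between them would give an SD of 24.1 to 254.1 reads. The pair therefore held nearly the same count in every library and is 1 measurement given in 2 rows, and miR-486a-5p stands below for both. Reads of the 2 genes, and of the strands, cannot be told apart here.

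Libraries held 3482540.0 to 18144016 counts, of which 51.4% to 82.1% were microRNA. The share was lowest in the Eµ-deficient libraries, at 60.2% non-stimulated and 51.4% with LPS, against 63.9% to 82.1% in the other 8. The second non-stimulated wt library and the second non-stimulated 3'RR-deficient library were the shallowest, and they stood apart from the first ones by base composition. From the first to the second replicate, the log2 level of a mature microRNA changed by 1.07 (wt) and 0.87 (3'RR-deficient) per 10% of GC over 497 mature microRNAs, against -0.25 and -0.19 in the LPS groups. The 82 microRNAs of at most 40% GC were lower in the second non-stimulated library by a median log2 of -2.73 (wt) and -2.15 (3'RR-deficient). miR-451a has a GC content of 36.4%, miR-144-5p of 30.4% and miR-144-3p of 30.0%, so these members are in that class, and the values found without single libraries are given with the comparisons. The B-cell microRNAs miR-150-5p, miR-142a-5p, miR-142a-3p, miR-181a-5p and miR-155-5p together made up 10.03% to 18.9% of the microRNA counts in every library. Levels are in CPM, read counts relative to a fixed microRNA total after scaling of the libraries, and each mature microRNA of 20 to 23 bases is covered by 1 read.

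Together the members, with miR-486 counted once, made up 0.277% to 0.889% of microRNA counts in the 4 non-stimulated wt and 3'RR-deficient libraries, and 0.0133% to 0.121% in the 4 LPS libraries. The Eµ-deficient libraries were at 1.10% non-stimulated (95% Wilson interval 1.10% to 1.11%) and 0.4996% with LPS (0.495% to 0.504%). In a library miR-451a ranked between 34 and 170 among all microRNAs and miR-486a-5p between 25 and 205, and miR-144-3p, at its highest, was at rank 146. These are thus minor but well counted microRNAs of this preparation, with the exception of miR-144-3p, which had 8 reads in the second non-stimulated wt library.

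miR-486 separated the conditions best of the members and was lower with LPS. In wt cells miR-486a-5p was at 841 and 2292 CPM non-stimulated and at 81.9 and 43.8 CPM with LPS. In 3'RR-deficient cells it was at 1078 and 6202 CPM non-stimulated and at 377 and 94.6 CPM with LPS. All LPS libraries thus lay below all non-stimulated libraries in wt and 3'RR-deficient cells, with 2.23-fold between the lowest non-stimulated and the highest LPS library. The replicates were wide apart. The second non-stimulated library held 2.73-fold (wt) and 5.75-fold (3'RR-deficient) the miR-486a-5p of the first, whereas the chromosome 11 members were lower in the second. The GC content of miR-486 was not available here, and the part of base composition in its levels was not tested. Over both genotypes the fitted log2 fold change was -4.25 (SE 0.78, n = 4 against 4 libraries), or 19.0-fold lower, with an adjusted p of 0.00497 in edgeR's quasi-likelihood test. miR-486b-5p gave the same value (adjusted p 0.00497). Hence 2 of 5 members, which are 1 measurement, passed the threshold of 0.05, in a comparison that called 21.8% of all 720 microRNA features tested (8.61% lower and 13.2% higher). A position of all LPS libraries below all non-stimulated ones was held by 12.9% of the 720 features.

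The fall of miR-486a-5p was present against either set of non-stimulated libraries. Against the first ones alone the log2 fold change was -3.04 (adjusted p 0.000830), and against the second ones alone it was -5.04 (adjusted p 3.54e-05). These 2 fits called 26.3% of 824 features and 38.6% of 756 features. Leaving out each library in turn gave values from -4.93 to -3.75, with adjusted p from 0.00125 to 0.0293. In Eµ-deficient cells miR-486a-5p was at 3343 CPM non-stimulated and at 1035 CPM with LPS, 3.23-fold lower, in 1 library each, and this change was not tested by itself. The Eµ-deficient LPS library was above the first non-stimulated wt library, so over all 10 libraries the conditions overlapped. They overlapped for each member, whereas 4.45% of 988 features had all LPS libraries below all non-stimulated ones.

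**Figure D1:**
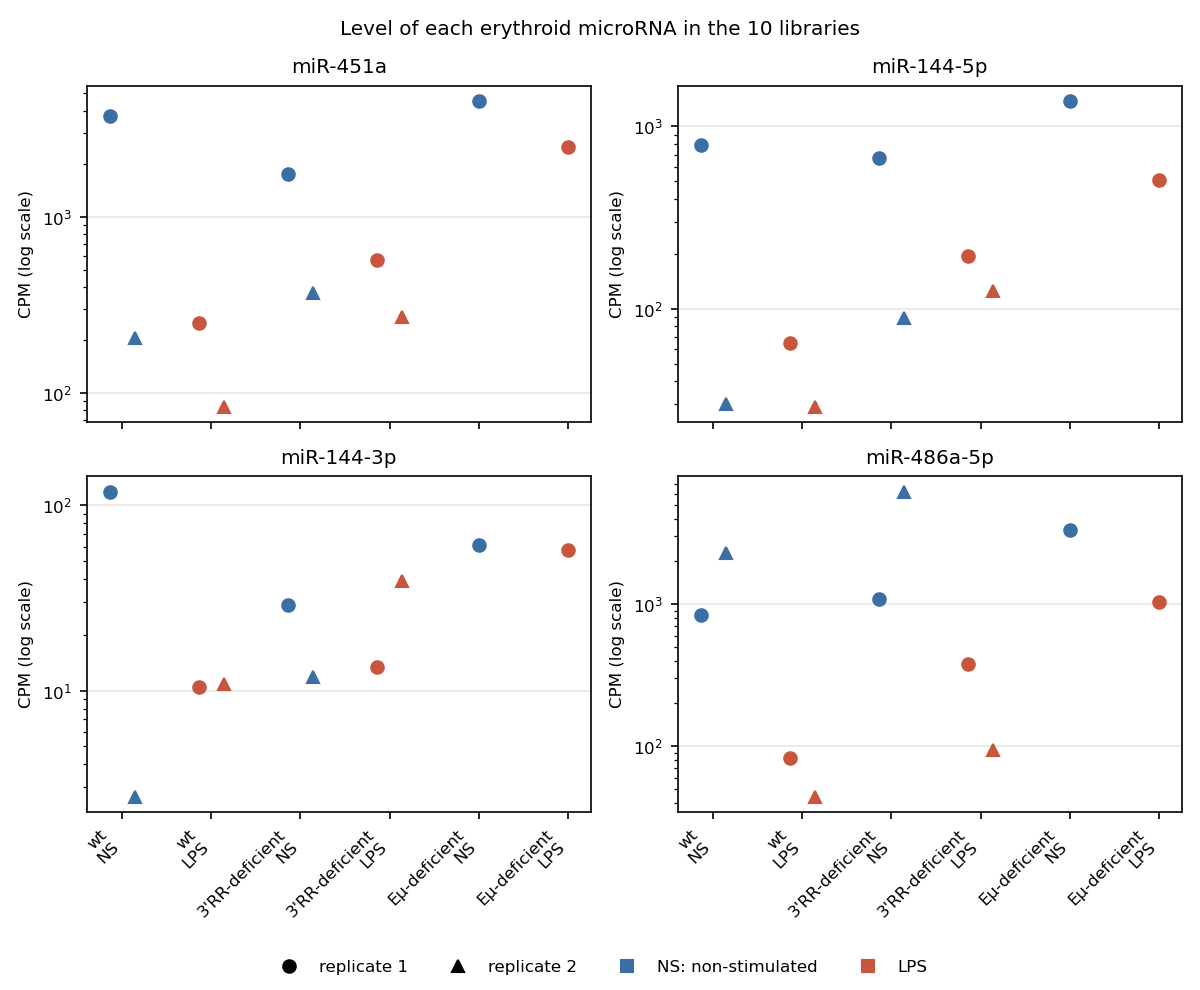
Level of miR-451a, miR-144-5p, miR-144-3p and miR-486a-5p in each of the 10 libraries, in CPM on a log scale, by genotype and condition (circles, replicate 1; triangles, replicate 2; blue, non-stimulated; red, LPS). For miR-486a-5p the LPS libraries of wt and 3'RR-deficient cells (43.8 to 377 CPM) lie below all non-stimulated ones. For the other 3 the second non-stimulated libraries lie within the range of these LPS libraries, or below it for miR-144-3p in wt cells.

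The chromosome 11 members did not pass the test for LPS. miR-451a was at 3719 and 205 CPM in non-stimulated wt cells and at 248 and 83.4 CPM with LPS. In 3'RR-deficient cells it was at 1754 and 367 CPM non-stimulated and at 564 and 268 CPM with LPS. The first library of each non-stimulated pair was above all 4 LPS libraries, but the second was within their range. The fitted log2 value over both genotypes was -2.37 (SE 0.93, adjusted p 0.0912, edgeR's quasi-likelihood test).

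miR-144-5p followed miR-451a library by library. It was at 792 and 30.0 CPM in non-stimulated wt cells against 64.8 and 29.1 CPM with LPS, and at 673 and 89.1 CPM in non-stimulated 3'RR-deficient cells against 195 and 125 CPM with LPS. Here too the first non-stimulated libraries were above all LPS libraries and the second were not, and the fitted log2 value was -2.12 (SE 0.94, adjusted p 0.130). miR-144-3p, the arm with the miR-101-like seed, was at 119 and 2.66 CPM in non-stimulated wt cells against 10.4 and 10.8 CPM with LPS, and at 28.9 and 11.8 CPM against 13.5 and 39.0 CPM in 3'RR-deficient cells. The groups overlapped in both genotypes, with a fitted log2 value of -1.07 (SE 0.98, adjusted p 0.459).

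For these 3 microRNAs the response depended on which non-stimulated libraries were used. Against the first ones alone miR-451a was lower with LPS by a log2 fold change of -3.45 (adjusted p 0.000605) and all 5 members passed the threshold, in a fit that called 26.3% of 824 features. Against the second ones alone miR-451a was at -0.15 (adjusted p 0.826), miR-144-5p at 0.65 and miR-144-3p at 1.36, so the direction of the miR-144 arms was reversed. Without the second non-stimulated 3'RR-deficient library miR-451a (-3.01, adjusted p 0.0303) and miR-144-5p (-2.73, adjusted p 0.0430) passed, and without the first non-stimulated wt library they were at -1.06 and -0.67. The GC content and the depth of the second libraries moved with these differences, and their part in the result was not tested.

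Within each genotype, with 2 libraries against 2, no member passed the threshold. In wt cells the log2 fold change with LPS was -4.62 for miR-486a-5p (SE 1.18, adjusted p 0.0833), -3.38 for miR-451a (adjusted p 0.182), -2.95 for miR-144-5p (adjusted p 0.237) and -2.38 for miR-144-3p (adjusted p 0.302). In 3'RR-deficient cells it was -3.88 for miR-486a-5p (SE 1.14, adjusted p 0.126), -1.36 for miR-451a (adjusted p 0.573), -1.28 for miR-144-5p (adjusted p 0.616) and 0.23 for miR-144-3p (adjusted p 0.929). Single libraries moved these values. miR-451a in wt cells was at -0.61 without the first non-stimulated wt library, at -4.39 without the second and at -4.55 without the first wt LPS library. In 3'RR-deficient cells it was at -0.012 without the first non-stimulated 3'RR-deficient library, at -2.23 without the second and at -2.29 without the first LPS one. miR-486a-5p went from -5.50 to -3.66 in wt cells and from -5.34 (without the first 3'RR-deficient LPS library) to -2.32 (without the second non-stimulated 3'RR-deficient library) in 3'RR-deficient cells. Both members thus stayed below 0 without any 1 library, miR-451a in 3'RR-deficient cells by next to nothing. These comparisons called 0.694% (wt) and 0.972% (3'RR-deficient) of the 720 features, all of them higher with LPS. Of the members, miR-486a-5p was under an unadjusted p of 0.05 in both genotypes (p 0.00282 and p 0.00654, edgeR's quasi-likelihood test over all features) and miR-451a in wt cells (p 0.0265), as were 21.7% (wt) and 19.3% (3'RR-deficient) of the 720 features. DESeq2 called 3 members in wt cells and 2 in 3'RR-deficient cells, where it called 14.3% and 13.5% of the 720 features.

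The response in 3'RR-deficient cells minus that in wt cells was 0.74 on the log2 scale for miR-486a-5p (95% interval -2.46 to 3.93), 2.03 for miR-451a (-1.75 to 5.80), 1.67 for miR-144-5p (-2.31 to 5.65) and 2.61 for miR-144-3p (-1.25 to 6.46). All 4 estimates were positive and all 4 intervals held 0. No feature was called in this comparison by edgeR (5 at an unadjusted p under 0.05, no member among them) or by DESeq2. A difference of the LPS response between the genotypes was not detectable with 2 libraries a group.

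**Figure D2:**
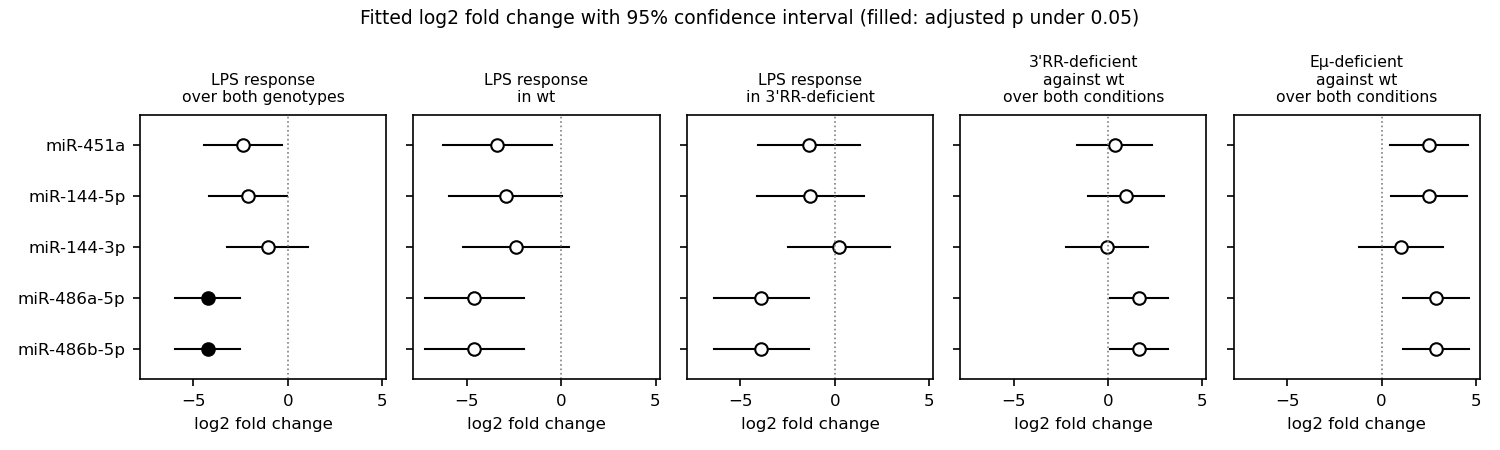
Fitted log2 fold change of the 5 members (points) with 95% confidence interval (lines) in 5 comparisons, filled where the adjusted p was under 0.05. Only miR-486a-5p and miR-486b-5p in the LPS response over both genotypes (-4.25) are filled, and the Eµ-deficient estimates of 4 members lie above 2.

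The loss of the 3'RR was compared with wt in each condition. Non-stimulated, the log2 fold change was -0.67 for miR-451a (SE 1.19), 0.11 for miR-144-5p (SE 1.25), -1.36 for miR-144-3p (SE 1.22) and 1.25 for miR-486a-5p (SE 1.03). The 2 wt libraries alone differed by 18.1-fold for miR-451a, and the range of wt held both 3'RR-deficient values of miR-451a, miR-144-5p and miR-144-3p. With LPS all 4 estimates were above 0, at 1.35 for miR-451a (SE 1.21), 1.78 for miR-144-5p (SE 1.30), 1.24 for miR-144-3p (SE 1.23) and 1.99 for miR-486a-5p (SE 1.05). Here both 3'RR-deficient libraries were above both wt libraries for each member, as they were for 15.4% of the 720 features. These values too moved with single libraries, miR-486a-5p from 0.49 without the first 3'RR-deficient LPS library to 2.76 without the second, and miR-451a from 0.59 without the first 3'RR-deficient LPS library to 2.49 without the first wt LPS library. No feature was called in either condition by edgeR without a block of replicates, with 9 and 15 features at an unadjusted p under 0.05 and no member among them.

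Over both conditions miR-486a-5p was 3.07-fold higher without the 3'RR on the fitted scale (log2 1.62, SE 0.70), with an unadjusted p of 0.0409 and an adjusted p of 0.997 in edgeR's quasi-likelihood test, with 21 of the 720 features under an unadjusted p of 0.05. It was at 0.90 without the first 3'RR-deficient LPS library and at 2.07 without the second non-stimulated wt library. In same-numbered libraries the 3'RR-deficient level of miR-486a-5p was 1.28-fold and 2.71-fold that of wt non-stimulated, and 4.61-fold and 2.16-fold with LPS. The other members were at 0.34 (miR-451a), 0.94 (miR-144-5p) and -0.07 (miR-144-3p) on the log2 scale, with an adjusted p of 0.997 each. This comparison called 0.139% of the 720 features, and none of the members. When same-numbered libraries of a condition were blocked together, both miR-486 members (1.33, adjusted p 0.00923) and miR-144-5p (1.32, adjusted p 0.0388) passed, in a fit that called 0.972% of the features.

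The Eµ-deficient libraries, which had the lowest shares of microRNA, held high levels of the members in both conditions. The part of that share in these levels was not tested. miR-451a was at 4514 CPM non-stimulated and 2475 CPM with LPS, and miR-144-5p at 1371 and 509 CPM, in both conditions above the 4 other libraries. miR-486a-5p, at 1035 CPM, and miR-144-3p, at 57.2 CPM, were the highest of the 5 LPS libraries, but non-stimulated they were within the range of the other 4 (3343 and 61.3 CPM). The Eµ-deficient library was above the other 4 for 22.7% of 988 features non-stimulated, for 27.4% with LPS and for 11.4% in both.

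The distance from wt was wide with LPS. There the Eµ-deficient library held 9.999-fold and 29.7-fold the miR-451a of the wt libraries, and 12.6-fold and 23.6-fold their miR-486a-5p. Non-stimulated, it held 1.21-fold and 22.0-fold their miR-451a and 3.98-fold and 1.46-fold their miR-486a-5p. In the additive fit of all 10 libraries, the log2 fold change of Eµ-deficient against wt was 2.87 for miR-486a-5p (SE 0.82, adjusted p 0.0909), 2.51 for miR-451a (SE 0.96, adjusted p 0.271), 2.51 for miR-144-5p (SE 0.94, adjusted p 0.263) and 1.03 for miR-144-3p (SE 1.04, adjusted p 0.761). No member passed in this comparison, which called 1.62% of the 988 features (1.42% higher and 0.202% lower).

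This result depended on single libraries of both genotypes. Without the first non-stimulated wt library miR-451a (log2 4.26, adjusted p 0.00540), miR-144-5p (4.37, adjusted p 0.00809) and miR-144-3p (3.37, adjusted p 0.0154) passed, and without the second one both miR-486 members passed (adjusted p 0.0318). Without the Eµ-deficient LPS library miR-486a-5p was at 1.54 (adjusted p 0.719) and miR-451a at 1.95 (adjusted p 0.708), and without the non-stimulated one they were at 3.81 and 3.21. With Eµ-deficient and wt libraries alone, 4 members were called, and 3.49% of 918 features. From non-stimulated to LPS the Eµ-deficient libraries differed by 1.82-fold for miR-451a, 2.70-fold for miR-144-5p and 1.07-fold for miR-144-3p, all lower with LPS. The Eµ-deficient minus the wt response, a comparison added after the data were seen, was 2.70 for miR-451a, 1.70 for miR-144-5p, 2.42 for miR-144-3p and 2.95 for miR-486a-5p on the log2 scale. The Eµ-deficient response is 1 library against 1, and its spread was assumed to be that of the groups with 2 libraries. Adjusted p for these differences was 0.980 to 1.00, and edgeR called none of the 988 features (33 at an unadjusted p under 0.05, no member among them).

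By mean level, the groups were ordered for miR-451a as Eµ-deficient non-stimulated (4514 CPM), Eµ-deficient LPS (2475 CPM), wt non-stimulated (1962 ± 2485 CPM, SD, n = 2), 3'RR-deficient non-stimulated (1061 ± 980 CPM, SD, n = 2), 3'RR-deficient LPS (416 ± 210 CPM, SD, n = 2) and wt LPS (165 ± 116 CPM, SD, n = 2). Of neighbours with 2 libraries each, only 3'RR-deficient LPS and wt LPS did not overlap. For miR-486a-5p the order was 3'RR-deficient non-stimulated (3640 ± 3623 CPM, SD, n = 2), Eµ-deficient non-stimulated (3343 CPM), wt non-stimulated (1566 ± 1026 CPM, SD, n = 2), Eµ-deficient LPS (1035 CPM), 3'RR-deficient LPS (236 ± 200 CPM, SD, n = 2) and wt LPS (62.9 ± 26.9 CPM, SD, n = 2). Here too 3'RR-deficient LPS and wt LPS did not overlap. Groups of 2 can be apart by their replicate spread alone, and neither pair differed by the test.

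The make-up of the members within a library, which no scaling between libraries can alter, set 2 libraries apart from the other 8 by the share of miR-486a-5p. The 8 were not alike in every share, as that of miR-144-3p went from 0.660% (Eµ-deficient non-stimulated) to 7.42% (second 3'RR-deficient LPS library). miR-486a-5p made up 15.4% to 36.0% of the members' reads in the 8, and 90.6% (95% Wilson interval 89.9% to 91.2%) and 93.0% (92.6% to 93.3%) in the second non-stimulated libraries of the wt and the 3'RR-deficient group. Its ratio to miR-451a was 0.226 to 0.740 in the 8 libraries and 11.2 and 16.9 in those 2. These are the libraries in which microRNAs of low GC content, as the chromosome 11 members are, were low, and the part of GC content in the make-up was not tested.

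**Figure D3:**
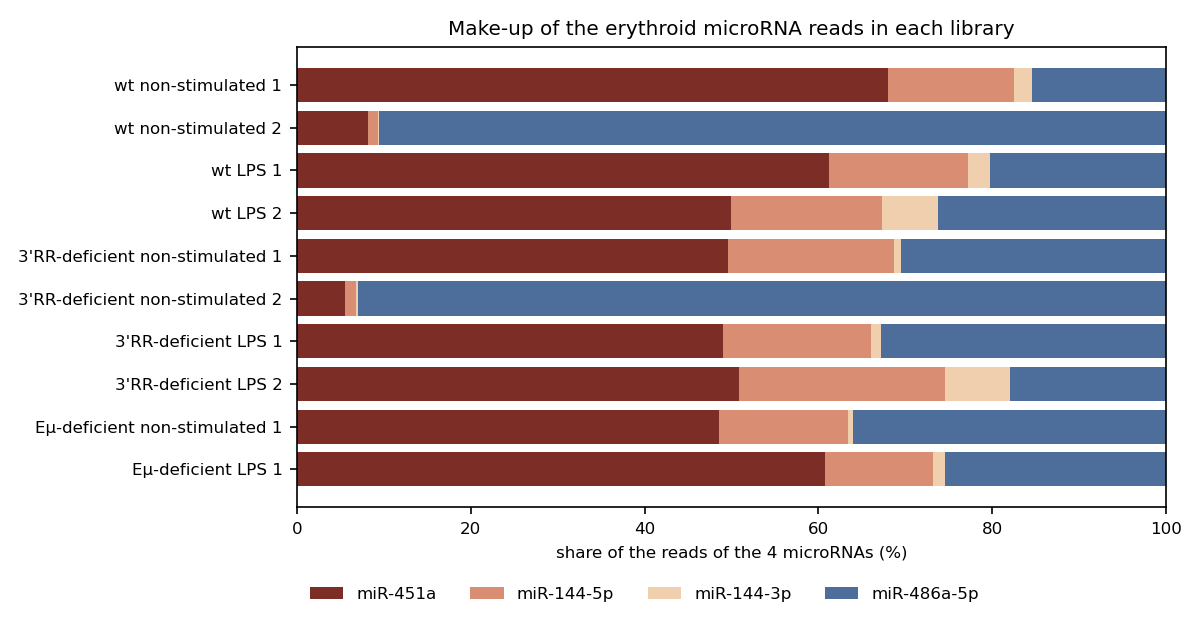
Share of miR-451a, miR-144-5p, miR-144-3p and miR-486a-5p in the summed reads of these 4 microRNAs, in percent, 1 bar per library. In the second non-stimulated library of either genotype with replicates, miR-486a-5p fills 90.6% and 93.0% of the bar, against 15.4% to 36.0% in the other 8.

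miR-451a and miR-144-5p, from neighbouring hairpins, kept a narrow ratio of 2.15 to 6.86 in all 10 libraries. Between the arms of the miR-144 hairpin, miR-144-5p was above miR-144-3p in all 10 libraries, but by a factor that went from 2.68 to 23.3. On log2 CPM over the 10 libraries, the Pearson correlation was 0.969 for miR-451a with miR-144-5p, 0.792 for miR-451a with miR-144-3p and 0.854 for the 2 arms of miR-144. With miR-486a-5p it was 0.543 for miR-451a, 0.416 for miR-144-5p and 0.0787 for miR-144-3p. Without the Eµ-deficient libraries, the correlation with miR-486a-5p was 0.427 for miR-451a, 0.249 for miR-144-5p and -0.115 for miR-144-3p. Depth and base composition also differed between the libraries, and their part in these correlations was not tested.

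Among the 319 other mature microRNAs with a mean of at least 10 CPM, the pattern of miR-451a over the 10 libraries was most like those of miR-374b-5p (Pearson r 0.859), miR-152-3p (0.826), miR-138-5p (0.824), miR-1839-3p (0.817) and miR-143-3p (0.810). That of miR-486a-5p was most like those of miR-125a-5p (0.951), miR-328-3p (0.927), miR-338-5p (0.918), miR-99b-5p (0.872) and miR-125b-5p (0.865). No name was in both sets, and miR-143-3p was on a list of other cells, as a marker of stroma.

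The other products of the same loci were each counted less than the mature members of their own hairpin. The passenger strand of miR-486, miR-486a-3p, was at 11.3 and 38.6 CPM in non-stimulated wt cells against 1.88 and 4.07 CPM with LPS, and at 8.72 and 53.6 CPM against 3.76 and 2.58 CPM in 3'RR-deficient cells. It fell with LPS by 3.20 on the log2 scale (SE 0.71, adjusted p 0.0111), as did miR-486b-3p, its near copy in the table (-3.23, SE 0.71, adjusted p 0.0103). Against the first non-stimulated libraries alone miR-486a-3p was at -1.77 (adjusted p 0.0380), and against the second ones alone at -4.02 (adjusted p 8.60e-05). These fits called 26.3% and 38.6% of all features tested. In the Eµ-deficient libraries miR-486a-3p was at 13.98 and 5.77 CPM, and its fold change against wt was 0.22 on the log2 scale (SE 0.82, adjusted p 0.928), next to 2.87 for the 5p strand. The difference between the strands was not tested.

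The hairpin feature of Mir451a, which counts reads of the hairpin beside those of the mature microRNA, held 53 and 0 reads in non-stimulated wt cells and 0 in both wt LPS libraries. It held 96 and 47 reads in non-stimulated 3'RR-deficient cells and 2 in each of their LPS libraries. With LPS libraries at or under the floor of 3 counts, the mean non-stimulated level of these genotypes was at least 15.2-fold higher. The feature passed the filter on low counts only through non-stimulated libraries. Its adjusted p of 0.00967 (edgeR's quasi-likelihood test) is therefore no separate support for the difference. The hairpin feature had a log2 fold change with LPS of -6.03 against the first non-stimulated libraries alone and of -4.90 against the second ones alone. Of the second ones, the wt library held 0 reads, as did both wt LPS libraries. The latter value thus rests on the 47 reads of 1 3'RR-deficient library. In Eµ-deficient cells it held 4222 reads non-stimulated and 241 with LPS. The former was 31.4-fold the CPM of the highest other non-stimulated library, and the latter at least 39.1-fold that of wt with LPS. Neither fold was tested by itself. The additive fit of Eµ-deficient against wt over both conditions gave an adjusted p of 0.00138 (edgeR's quasi-likelihood test). Relative to mature miR-451a these reads were at 9.69% in the non-stimulated Eµ-deficient library and at 0% to 3.79% in the other 9. The Mir144 hairpin had 0 or 1 read in every library, and the Mir486 hairpin had 20 reads in the second non-stimulated 3'RR-deficient library, 10 in the non-stimulated Eµ-deficient library and 0 in the other 8.

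Of 8 other microRNAs that are abundant in red cells, but also in white cells (miR-16-5p, miR-92a-3p, miR-25-3p, miR-22-3p, miR-15b-5p, miR-363-3p, miR-107-3p and miR-185-5p), 1 rose with LPS, miR-363-3p (log2 1.70, adjusted p 0.0302), and none fell, with a median of 0.01 against 0.07 over all features. This rise passed in 2 of the 8 fits that each left out 1 library, with adjusted p up to 0.0925. For LPS over both genotypes, 13.2% of all 720 features were called as higher and 8.61% as lower. Of 8 microRNAs known to change during red cell development, 1 rose and 2 fell with LPS, with a median of -0.17. These were miR-155-5p, which is induced in activated B-cells (2.76, adjusted p 0.00261), miR-223-3p, which is abundant in granulocytes (-3.49, adjusted p 0.00261), and miR-150-5p, a microRNA of resting lymphocytes (-2.45, adjusted p 0.00392). In Eµ-deficient against wt cells none of either list was called, with medians of -0.35 and 0.46 against -0.17 over all features.

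Some markers of other cells fell with LPS, as miR-486 did. Both myeloid markers, miR-223-3p and miR-223-5p, fell with LPS, from a summed level of 479 to 1990 CPM in the non-stimulated wt and 3'RR-deficient libraries to 82.4 to 146 CPM. So did all 3 stroma markers, miR-143-3p, miR-145a-5p and miR-199a-3p, from 169 to 961 CPM to 18.2 to 67.7 CPM. All 5 of these markers were called, in a comparison that called 8.61% of the 720 features as lower and 13.2% as higher. They were also called as lower against the first non-stimulated libraries alone (26.3% of 824 features called) and against the second ones alone (38.6% of 756). In the fits that left out 1 library each they stayed called, except miR-223-5p without the first wt LPS library (adjusted p 0.0513). Of the 5 B-cell markers 1 rose and 2 fell, miR-150-5p and miR-181a-5p (-2.31), and neither of the 2 endothelium and platelet markers was called. In the Eµ-deficient libraries the myeloid sum was up to 5031 CPM non-stimulated and 512 CPM with LPS, the stroma sum was 534 CPM non-stimulated and 935 CPM with LPS, and 1 stroma marker was called as higher than in wt, miR-199a-3p (log2 3.70, adjusted p 0.0318). It passed in 5 of the 10 fits that left out 1 library each and was at 1.58 (adjusted p 0.664) without the Eµ-deficient LPS library. The part of such cells in the levels of miR-451a, miR-144 and miR-486 was not tested. The markers of muscle, the other tissue rich in miR-486, were near 0, since miR-1a-3p and miR-133a-3p summed to 0 to 2.92 CPM in all 10 libraries. The liver marker miR-122-5p was at 0 to 5.62 CPM and was not called in either comparison.

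**Figure D4:**
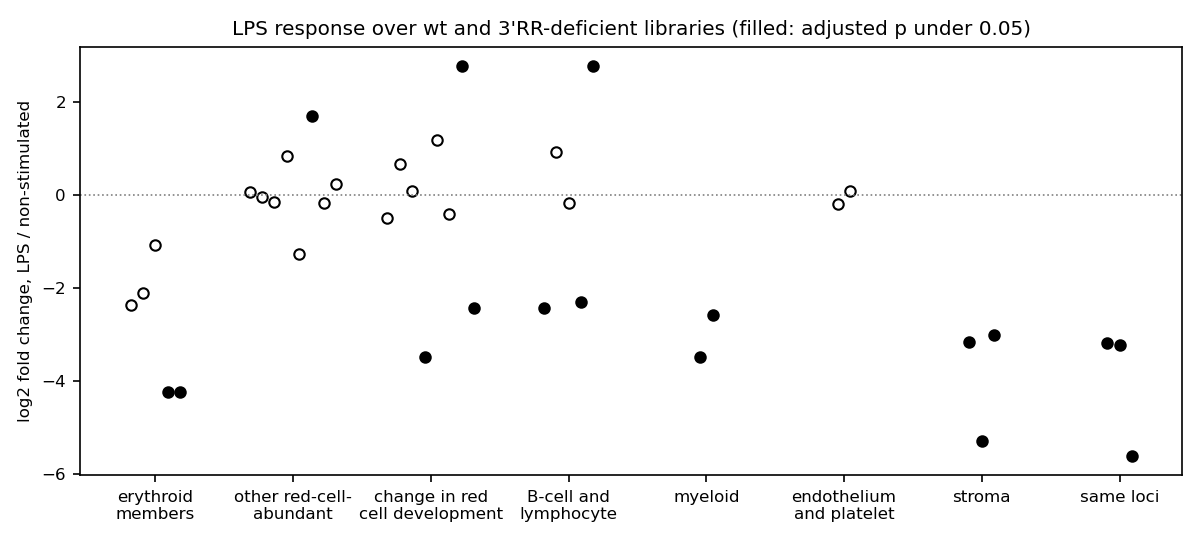
Fitted log2 fold change with LPS over wt and 3'RR-deficient libraries for the 5 members, for other products of their loci and for 6 lists of other microRNAs, each point 1 feature, filled where the adjusted p was under 0.05. Both miR-486 members, the 3 tested products of the same loci, both myeloid and all 3 stroma markers are filled and below 0, whereas the list of other red-cell-abundant microRNAs is centred near 0.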

How the data were processed

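Small RNA libraries were made from 1 µg of RNA with 17 PCR cycles, size-selected at 140 to 160 nt and read over 75 nt, per the labels. The deposited table holds raw counts per feature and library as the authors made them. The submitters' processing notes name cutadapt 1.2.1, Bowtie2 and mm10, whereas the counting program and its treatment of reads with several matches are not given in the sources used here. In the microRNA class, counts were scaled by TMM, filtered with filterByExpr and tested with edgeR 4.0.16 (R 4.3.3, quasi-likelihood F-test, two-sided, prior count 2, Benjamini-Hochberg adjustment over all features tested). Additive fits (genotype and stimulation) were made on 8 wt and 3'RR-deficient libraries (720 features) and on all 10 (988 features). Single contrasts used a mean per group. Calls have an adjusted p under 0.05. DESeq2 1.42.0 (Wald test), other scalings, filters, feature sets and sample sets, replicate blocks and the omission of each library were alternatives. The members, the lists of other microRNAs and the naming rule (all members, other products of their loci, called list members, the 5 most alike microRNAs) were chosen with earlier results of these data known. miR-206-3p was not analysed here. Intervals of shares are Wilson intervals. Neither they nor the floor of 3 counts covers more than counting error, since reads after PCR are not independent molecules. The scripts were tested on simulated data.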

Additional observations from a re-analysis of the deposited data

Results flagged for a closer look

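Reads of hairpins, which are outside the comparisons of mature microRNAs, were present above the floor of 3 counts in 4 libraries at a higher CPM than in any wt library of the same condition. The Mir451a hairpin had 4222 reads in the non-stimulated Eµ-deficient library, 241 reads in the Eµ-deficient LPS library, 96 reads in the first non-stimulated 3'RR-deficient library, and 47 reads in the second one. The wt libraries had 53 and 0 reads non-stimulated and 0 with LPS, which is at most 5.95 CPM. The 96 and 47 reads are 12.7 and 13.9 CPM, and the reads of the Eµ-deficient libraries are 437 CPM non-stimulated and 21.1 CPM with LPS. Relative to mature miR-451a the hairpin was at 0.160% in the first non-stimulated wt library, at 0.723% and 3.79% in the 3'RR-deficient ones and at 9.69% in the non-stimulated Eµ-deficient library. The Mir486 hairpin had 20 reads in the second non-stimulated 3'RR-deficient library and 10 reads in the non-stimulated Eµ-deficient library, and 0 in all wt libraries.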

How the results depend on the processing

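Of 880 alternative values of the members over all comparisons, 780 kept their direction and their side of the threshold, 58 gained a call, 0 lost one and 42 changed direction. The fall of miR-486a-5p with LPS over both genotypes passed under all 21 alternatives tried, from -5.04 to -3.04 on the log2 scale. miR-144-3p had the fewest reads, 8 in the second non-stimulated wt library. The causes of the changes below were not tested. The fits without single libraries for microRNAs other than the members were chosen after the data were seen.

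For LPS over both genotypes, 2 members were called. There were 4 without the filter on low counts (9.95% of all features called) and 4 with DESeq2 (34.3%), 5 against the first non-stimulated libraries alone (26.3%), and 2 to 4 when each library was left out (4 without the second non-stimulated 3'RR-deficient library). In wt cells no member was called in the edgeR fit reported above. The count was 4 without the filter (2.78% of all features), 3 with DESeq2 (14.3%) and up to 4 when each library was left out (4 without the first non-stimulated 3'RR-deficient library). In 3'RR-deficient cells the count went from 0 to 2 without the filter (1.72%), 2 with DESeq2 (13.5%) and 0 to 2 when each library was left out (2 without the first non-stimulated wt library). For Eµ-deficient against wt it went from 0 to 4 without the filter (2.41%), 2 with DESeq2 (5.77%), 4 with these 2 genotypes alone (3.49%) and 0 to 3 when each library was left out (3 without the first non-stimulated wt library). Over all features the calls of the 4 comparisons, out of different numbers tested, ranged from 71 to 292 (157 as reported), 0 to 103 (5), 0 to 97 (7) and 1 to 155 (16).

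Replicate numbers did not mark pairs throughout. Between the genotypes, the differences of replicate 2 from replicate 1 correlated across 720 features with r = 0.66 non-stimulated and 0.11 with LPS, and with -0.29 to -0.059 between the conditions. With the replicate number as a block, miR-451a was called for LPS over both genotypes (-1.87, adjusted p 0.0379), and 2 members were called in wt cells (3.75% of all features). A block within each condition ties same-numbered libraries of the 2 genotypes. LPS lies between such blocks, so it gives no value for the LPS response of a genotype, only for the difference of the responses (3'RR-deficient minus wt), which was 1.47 for miR-451a (SE 0.56), 1.11 for miR-144-5p (SE 0.57), 1.36 for miR-144-3p (SE 1.07) and 0.67 for miR-486a-5p (SE 0.53), with an adjusted p of 1 each and none of 720 features called. For 3'RR-deficient against wt over both conditions it called 3 members and 0.972% of the 720 features. Under these blocks miR-144-3p changed direction for 3'RR-deficient against wt over both conditions (0.28 and 0.57).

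Other reversals were as follows. Against the second non-stimulated libraries alone, miR-144-5p was at 0.65 and miR-144-3p at 1.36 with LPS over both genotypes. For LPS in 3'RR-deficient cells miR-144-3p was at -0.72 with all small RNA classes in the fit. For 3'RR-deficient against wt without LPS, where miR-144-5p was near 0, it was at -0.11 with DESeq2 size factors and with DESeq2, -0.027 with a minimum of 10 CPM in 2 libraries, -0.060 with mature microRNAs alone, -0.031 with miR-486 entered once (chosen after the data were seen) and -0.040 with only the groups compared. Another scaling moved the median of all features by over 0.1 in some comparisons, for Eµ-deficient against wt from -0.17 to 0.20 with total counts.

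Leaving out each library in turn turned the sign of these log2 values. With LPS, miR-144-3p went from -1.71 to 0.69 over both genotypes, from -3.41 to 1.66 in wt cells and from -0.53 to 0.82 in 3'RR-deficient cells, and miR-144-5p from -3.99 to 0.34 in wt and from -2.24 to 0.63 in 3'RR-deficient cells. The difference of responses (3'RR-deficient minus wt) went from -0.74 to 3.47 for miR-451a, -1.60 to 3.67 for miR-144-5p, -1.45 to 3.61 for miR-144-3p, -0.66 to 2.36 for miR-486a-5p and -0.65 to 2.36 for miR-486b-5p. For Eµ-deficient minus wt it went from -0.46 to 3.75 for miR-451a, -1.98 to 2.66 for miR-144-5p and -1.97 to 3.39 for miR-144-3p. For 3'RR-deficient against wt without LPS the ranges were -2.08 to 2.13 for miR-451a, -1.86 to 3.41 for miR-144-5p, -2.31 to 2.72 for miR-144-3p, -0.36 to 2.17 for miR-486a-5p and -0.36 to 2.17 for miR-486b-5p. Over both conditions they were -0.18 to 1.67 for miR-451a and -0.58 to 1.76 for miR-144-3p.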
